A study of Mus musculus with 9 samples.

Results

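The genes described here are 35 genes listed for periotic mesenchyme, fibroblasts and cartilage, collagens left out, among 54232 genes counted in the cochlear ducts of E14.5 mice. All 35 were found by matching Ensembl identifiers to mouse symbols. They comprise 15 transcription factors of mesenchyme, 3 surface genes (both PDGF receptors and Thy1), 6 small leucine-rich proteoglycans, 5 genes of microfibrils, crosslinking and otic matrix, and 6 genes of cartilage matrix. The embryos carried the Prdm16 cGT allele, a germline gene trap that disrupts Prdm16, on 2 chromosomes (Null), on 1 chromosome (Het) or on none (WT), in a line kept on the FVB/NJ background. Each library held the RNA of the hand-dissected ducts of both ears of 1 embryo, with 3 littermates per genotype and 9 libraries in all. Because the trap sits in the germline, every tissue of a Null embryo carries it, the mesenchyme included. The p-values below measure the spread between single embryos of a genotype.

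Periotic mesenchyme surrounds the epithelium of the cochlear duct. It condenses into the cartilage of the otic capsule and later gives rise to fibrocytes of the lateral wall, and it exchanges signals with the epithelium as the duct grows. T-box, forkhead, Prrx and Twist factors mark such mesenchyme, PDGF receptors carry growth signals into it, and aggrecan and the matrilins are parts of the matrix of cartilage. Decorin, lumican, fibrillin and chondromodulin are matrix genes that epithelia can also transcribe. In the clusters the study drew from single cells, Tbx18, Prrx1, Pdgfra and Foxc1 stand with the mesenchyme, whereas Dcn stands with Kölliker's organ, the epithelial ridge beside the future sensory cells.

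Total counts per library ran from 24095322 to 30819118. The floor of a library was taken as 3 counts, which equal 0.0973 to 0.125 CPM when scaled by these totals alone, without TMM factors. The CPM values of genes are counts scaled to a common library size with TMM factors. Floors cover counting error only. Prdm16 stood at 184 to 225 CPM in WT, 123 to 151 CPM in Het and 19.1 to 27.4 CPM in Null, in the order of the labels. The libraries WT 1, WT 2 and Null 3 stood apart in endothelial and macrophage genes. The 10 endothelial markers summed to 9.90 to 105 CPM in WT, 11.6 to 14.6 CPM in Het and 12.3 to 64.6 CPM in Null, with 9, 9 and 8 of the 10 at over 2 times the highest Het library in WT 1, WT 2 and Null 3, and 0 of 10 in WT 3, Null 1 and Null 2. Cdh5, Emcn, Tie1 and Sox17 were at 0 in at least 1 library. The 7 macrophage and leukocyte markers summed to 3.59 to 17.6 CPM in WT, 2.05 to 2.85 CPM in Het and 2.16 to 9.80 CPM in Null, with 5 of 7 over that limit in each of WT 1, WT 2 and Null 3. Over the same limit in WT 1, WT 2 and Null 3 were 3, 4 and 0 of 6 melanocyte markers, 0, 1 and 1 of 9 pericyte and smooth muscle markers, 0, 1 and 1 of 7 glial markers, and 2, 1 and 3 of 10 spiral ganglion neuron markers. These last 3 lists did not set the 3 libraries apart, since WT 3 had 1, 2 and 3 genes over the limit and Null 1 had 1 pericyte and smooth muscle gene over it. For 8 erythroid markers it was 6, 7 and 3, and 4 in Null 1. The 12 markers of duct epithelium had 0 genes over it in any WT or Null library, and their sums of 10114 to 11614 CPM in WT, 11913 to 12297 CPM in Het and 12987 to 17319 CPM in Null did not overlap. The part of these differences in the results below was not tested.

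For most of the 35 genes single libraries stood out within a genotype. Null 3 held the highest of all 9 values for 27 of the 35 genes (77.1%), against 16% of 17797 genes across the transcriptome. WT 2 was the highest WT library for 24 of the 35 and WT 3 the lowest for 25. Only Dcn, Lum, Mfap4, Fbn1 and Cnmd kept the highest of the 9 values under 2 times the lowest, at ratios of 1.40 to 1.90. Among the others, 9 genes had at least 1 library at or under 3 counts, namely Tbx15, Twist2, Osr2, Thy1, Aspn, Omd, Mfap5, Comp and Scrg1. In bulk RNA, fewer cells of a type cannot be told apart from less RNA per cell.

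**Figure D1:**
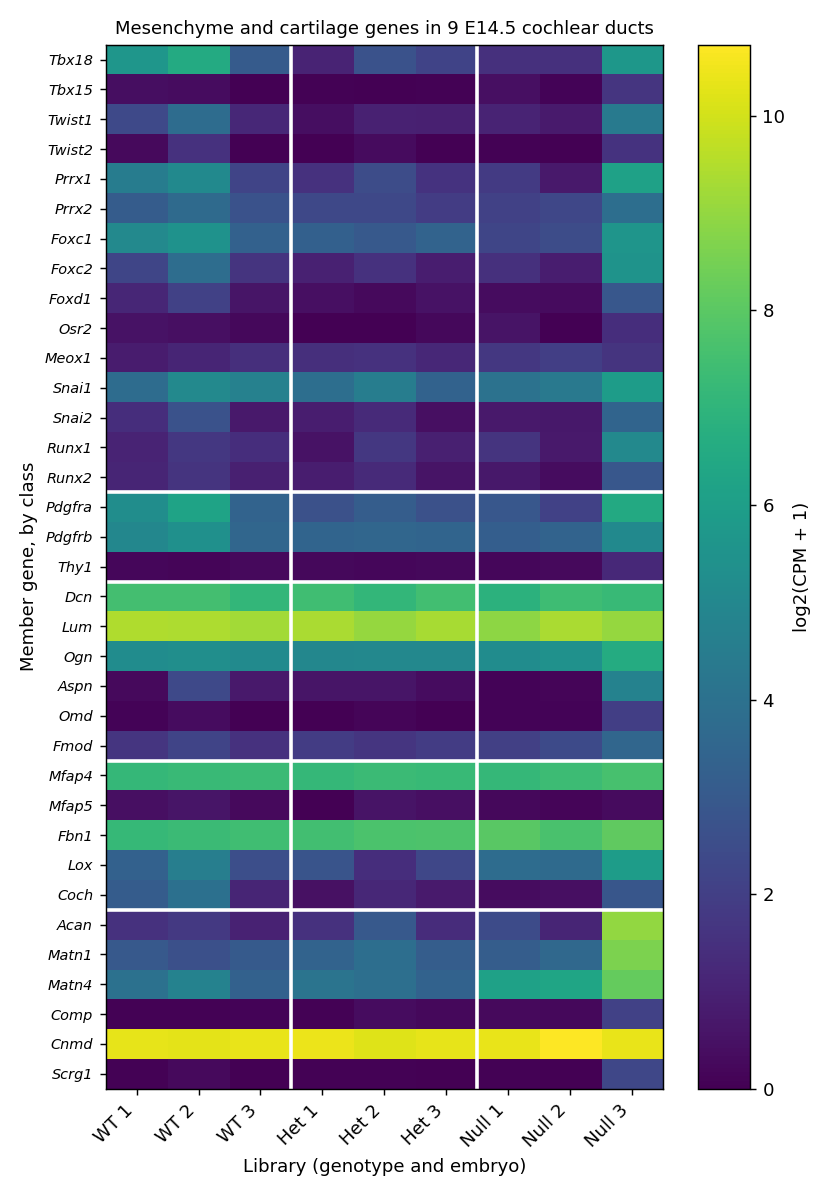
Level of each of the 35 genes (rows, grouped by class, white lines between classes) in each of the 9 libraries (columns), coloured by log2(CPM + 1). Rows of Tbx18, Twist1, Prrx1, Foxc1 and Pdgfra are brighter in WT 1, WT 2 and Null 3, those of Meox1, Snai1 and Runx1 do not share this order, Acan and Matn1 are bright in Null 3, and Dcn, Lum, Mfap4, Fbn1 and Cnmd vary little in colour.

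Tbx18, a T-box factor needed for otic fibrocytes, had the highest mean CPM of the transcription factors in WT, but not in Het or Null. Its level was 49.1, 94.3 and 7.35 CPM in WT 1, 2 and 3, 1.12, 5.58 and 3.43 CPM in the Het libraries, and 1.77, 1.77 and 50.3 CPM in Null 1, 2 and 3. All Het values lay below all WT values, while Null 3 fell among the WT values and Null 1 and 2 among the Het values. The highest library held 83.9 times the lowest. The edgeR log2 fold change was -1.50 (standard error 1.31, adjusted p = 0.709) for Null against WT and -3.87 (standard error 0.806, adjusted p = 0.0757) for Het against WT, so neither passed. Without Null 3 the Null value was -4.82 (edgeR adjusted p = 0.0564), still above the threshold of 0.05.

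Prrx1, a homeobox factor of limb and head mesenchyme, had 21.5, 33.2 and 3.56 CPM in WT, 1.89, 4.57 and 1.97 CPM in Het, and 2.56, 0.645 and 69.1 CPM in Null. Null 3 was the highest library and Null 2 the lowest, and the WT and Het ranges overlapped only through WT 3. Twist1, a bHLH factor of mesenchyme, had 4.22, 12.7 and 1.32 CPM in WT, 0.321, 0.973 and 0.950 CPM in Het, and 1.11, 0.710 and 20.4 CPM in Null. Null 3 was again the highest library, Het 1 was the lowest, and every Het value lay below every WT value. The edgeR log2 fold changes of Prrx1 and Twist1 for Het against WT were -2.78 (adjusted p = 0.101) and -3.00 (adjusted p = 0.107). Prrx2, the paralog of Prrx1, spread less, with 5.49 to 12.3 CPM in WT, 2.70 to 4.01 CPM in Het and 3.18 to 13.8 CPM in Null.

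Foxc1, a forkhead factor of head and otic mesenchyme, had 32.5, 43.5 and 9.08 CPM in WT, 8.87, 7.10 and 9.57 CPM in Het, and 3.75, 4.68 and 48.0 CPM in Null. Null 1 and Null 2 lay below every other library, and Null 3 above every one. Foxc2, its paralog, had 3.74, 13.1 and 2.07 CPM in WT, 0.963, 1.87 and 0.840 CPM in Het, and 1.81, 0.839 and 45.04 CPM in Null, so that Null 3 stood at 3.43 times the next highest library. Foxd1, a forkhead factor of stroma, stayed at 3.21 CPM or below in all libraries but Null 3, where it had 6.45 CPM.

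The Runx genes, which direct blood and skeletal lineages, were highest in Null 3. Runx1 had 1.07, 2.31 and 1.66 CPM in WT, 0.441, 2.34 and 0.913 CPM in Het, and 2.10, 0.645 and 31.9 CPM in Null. The Null 3 value was 13.6 times that of the next library. Runx2, the factor of bone and hypertrophic cartilage, had 0.290 to 2.04 CPM in the other 8 libraries and 6.53 CPM in Null 3.

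Snai1 and Snai2 repress epithelial genes during transitions to mesenchyme. Snai1 was detected in every library, at 13.1, 32.6 and 25.3 CPM in WT, 13.6, 22.5 and 9.28 CPM in Het, and 15.7, 19.2 and 60.7 CPM in Null, and the 3 genotypes overlapped. Snai2 was lower, at 0.365 to 5.56 CPM outside Null 3 and 10.1 CPM in it. Meox1, a homeobox factor of somite mesoderm, was the one factor whose Null values all lay above the WT values, and Null 3 was not the highest of them. It had 0.740, 1.14 and 1.76 CPM in WT, 1.77, 1.87 and 1.28 CPM in Het, and 2.35, 3.00 and 2.09 CPM in Null. They lay above the Het values too, and the log2 fold change against WT, 1.02 with a standard error of 0.352, did not pass (edgeR adjusted p = 0.278). Tbx15, a T-box factor of skin and limb mesenchyme, Twist2, the dermal relative of Twist1, and Osr2, a zinc finger factor of palate mesenchyme, reached at most 2.14 CPM anywhere and had libraries at 0.

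Of the surface genes, Pdgfra and Pdgfrb encode the receptors for PDGF ligands on mesenchyme and on mural cells. Pdgfra had 37.3, 74.8 and 9.73 CPM in WT, 5.38, 8.03 and 5.30 CPM in Het, and 6.43, 3.23 and 90.6 CPM in Null. Every Het value lay below every WT value, and Null 3 lay above all. Pdgfrb had 30.4, 41.3 and 10.7 CPM in WT, 10.03, 10.6 and 9.87 CPM in Het, and 8.17, 9.62 and 32.8 CPM in Null. WT 2 was the highest library here, and the highest Het value lay just under that of WT 3. The log2 fold changes for Het against WT were -2.70 for Pdgfra (standard error 0.580, edgeR adjusted p = 0.0784) and -1.43 for Pdgfrb (standard error 0.375, edgeR adjusted p = 0.127). Thy1, a fibroblast surface glycoprotein also made by neurons, was at 0.118 to 0.203 CPM in 8 libraries and 1.34 CPM in Null 3. The 4 PDGF ligand genes had none called in any of the 3 comparisons, and their median log2 fold change was 0.012 for Null against WT. Of these, Pdgfc had 208 to 215 CPM in WT, 185 to 198 CPM in Het and 147 to 169 CPM in Null, with no overlap, and its Null against WT difference of -0.42 was under the fold threshold (edgeR adjusted p = 0.0372).

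The small leucine-rich proteoglycans bind collagen fibrils and space them. Lum (lumican) had 692, 687 and 610 CPM in WT, 655, 526 and 647 CPM in Het, and 486, 655 and 520 CPM in Null. Dcn (decorin) had 183, 181 and 138 CPM in WT, 173, 137 and 176 CPM in Het, and 118, 168 and 150 CPM in Null. Neither set WT 1, WT 2 and Null 3 apart, and the genotypes overlapped. The edgeR log2 fold changes for Null against WT were -0.26 for Lum (standard error 0.127, adjusted p = 0.460) and -0.21 for Dcn (standard error 0.154, adjusted p = 0.658). The 2 genes are neighbours on chromosome 10, 47.0 kb apart.

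Ogn, Omd and Aspn form a second cluster, on chromosome 13, with gaps of 14.9 and 15.2 kb between neighbours. Ogn (osteoglycin) had 36.0, 39.1 and 33.7 CPM in WT, 30.3, 30.8 and 31.5 CPM in Het, and 36.2, 41.5 and 96.0 CPM in Null. Het lay below both other genotypes with little spread, 30.9 ± 0.603 CPM (SD, n = 3), and Null 3 stood at 2.31 times the next library. Aspn (asporin) was at 0.0825 to 4.15 CPM in 8 libraries and 25.7 CPM in Null 3. Omd (osteomodulin) was at 0.274 CPM or below in 8 libraries, 7 of them at or under 3 counts, and at 2.97 CPM in Null 3. All 3 genes of the cluster thus stood at over 2 times every other library in Null 3, and Ogn was also well detected in the other 8. Fmod (fibromodulin) had 1.86 to 3.61 CPM in WT, 2.20 to 2.73 CPM in Het, and 3.05, 4.39 and 10.6 CPM in Null, with every Null value above every Het value (log2 fold change 1.24, edgeR adjusted p = 0.347).

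Among the microfibril genes, Mfap4 was steady and the Fbn1 means were ordered WT, Het, Null. Mfap4, a glycoprotein of elastic microfibrils, had 139, 152 and 157 CPM in WT, 140, 156 and 147 CPM in Het, and 142, 163 and 195 CPM in Null. The genotypes overlapped. Its exons share 89 bases with Mapk7 on the opposite strand, a gene that is itself well detected here, and reads in these bases could not be separated. Fbn1 (fibrillin 1, ENSMUSG00000027204, chr2:125300594-125507993 of mm10, minus strand), the main structural protein of microfibrils, had 144, 159 and 173 CPM in WT, 179, 206 and 210 CPM in Het, and 251, 202 and 274 CPM in Null. All 6 Het and Null values lay above all 3 WT values, while Null 2 fell inside the Het range. The means were 158.6 ± 14.3, 198.5 ± 16.7 and 242.3 ± 36.4 CPM (SD, n = 3 each). Against WT, the log2 fold change in Null embryos was 0.61 with a standard error of 0.125 (edgeR adjusted p = 0.0628) and in Het embryos 0.32 with a standard error of 0.0756 (edgeR adjusted p = 0.0938). The sums of the duct epithelium list had the same order of genotypes, and their part was not tested. The Null value was 0.51 without Null 3 (edgeR adjusted p = 0.0754) and passed in DESeq2 (adjusted p = 2.44e-04). Fbn1 exons share 2442 bases with the opposite-strand gene Gm9913, which had 0.271 to 0.963 CPM.

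Lox, the lysyl oxidase that crosslinks collagen and elastin, had 9.14, 22.9 and 4.95 CPM in WT, 5.98, 1.66 and 3.84 CPM in Het, and 12.9, 12.1 and 60.4 CPM in Null. All Null values lay above all Het values, while WT spread across both. The log2 fold change for Null against Het was 2.90 (standard error 0.713, edgeR adjusted p = 0.169), and 1.71 without Null 3 (edgeR adjusted p = 0.0740). Coch (cochlin), a secreted protein of otic fibrocytes and the spiral limbus, had 7.77, 14.4 and 1.19 CPM in WT, 0.401, 1.30 and 0.694 CPM in Het, and 0.289, 0.355 and 6.32 CPM in Null. It was high in WT 1, WT 2 and Null 3 like Tbx18, with Null 1 and Null 2 below every other library. Mfap5, a partner of fibrillin, stayed at 0.510 CPM or below everywhere, Null 3 included.

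**Figure D2:**
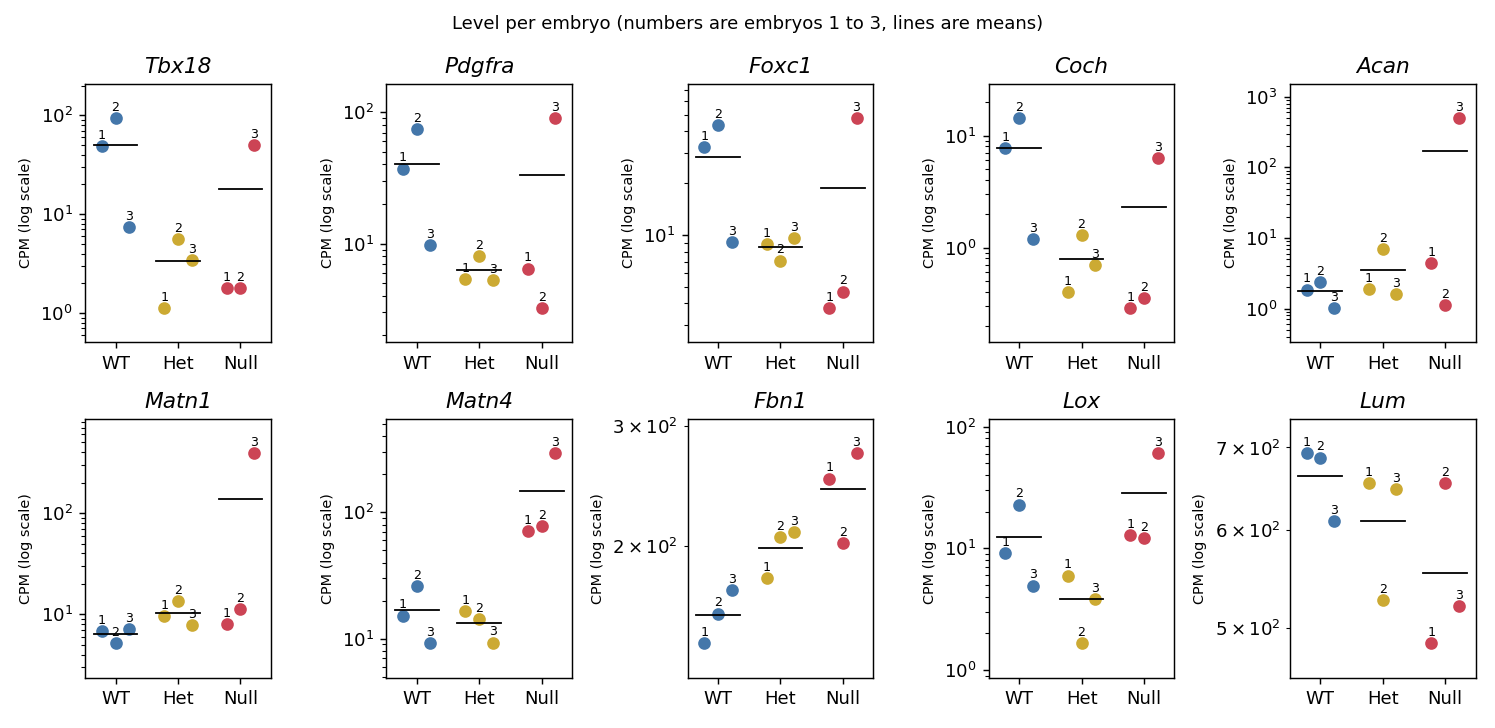
Level of 10 genes in each embryo (CPM, log axis, points numbered by embryo, black lines at the genotype mean). Embryos WT 1, WT 2 and Null 3 sit high for Tbx18, Pdgfra, Foxc1 and Coch, Null 3 alone sits high for Acan and Matn1, all 3 Null embryos sit above the others for Matn4, and the Fbn1 means are ordered WT, Het, Null.

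The cartilage genes split into Cnmd, abundant in every duct, Matn4, higher in all Null ducts, and 4 genes that Null 3 alone held well above the rest. Acan (aggrecan, ENSMUSG00000030607, chr7:79053483-79115099 of mm10, plus strand), the large proteoglycan of cartilage, had 1.85, 2.39 and 1.02 CPM in WT, 1.89, 7.02 and 1.61 CPM in Het, and 4.41, 1.129 and 501 CPM in Null. Matn1 (matrilin 1, ENSMUSG00000040533, chr4:130944385-130955475, plus strand), which links cartilage fibrils, had 6.88, 5.17 and 7.22 CPM in WT, 9.71, 13.6 and 7.86 CPM in Het, and 8.04, 11.3 and 390 CPM in Null. Null 3 held 71.4 times the next library for Acan and 28.7 times for Matn1. For Matn1, Null 1 and Null 2 lay within the Het range, and for Acan, Null 1 lay within it and Null 2 below it. The Null means of 168.9 ± 287.8 CPM for Acan and 136.5 ± 219.7 CPM for Matn1 (SD, n = 3) thus describe 1 embryo.

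For Null against WT, edgeR gave log2 fold changes of 6.59 for Acan (standard error 2.15, adjusted p = 0.247) and 4.40 for Matn1 (standard error 1.44, adjusted p = 0.250), neither called. Without Null 3 these were 0.65 (edgeR adjusted p = 0.633) and 0.59 (edgeR adjusted p = 0.245). Comp, a pentameric cartilage matrix protein, was at 0.288 CPM or below in 8 libraries and 3.18 CPM in Null 3, and Scrg1, a gene of differentiating chondrocytes, at 0.196 CPM or below and 3.85 CPM. Both had libraries at or under 3 counts. Cnmd (chondromodulin), an inhibitor of vessel growth in cartilage, had 1306, 1238 and 1326 CPM in WT, 1348, 1189 and 1298 CPM in Het, and 1324, 1701 and 1327 CPM in Null. Null 3 did not stand out for Cnmd, and the highest value, in Null 2, was 1.43 times the lowest.

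Matn4 (matrilin 4, ENSMUSG00000016995, chr2:164389393-164405160 of mm10, minus strand), a matrilin found in many loose matrices besides cartilage, was the one member called by edgeR. It had 15.2, 26.2 and 9.15 CPM in WT, 16.6, 14.2 and 9.28 CPM in Het, and 70.5, 78.2 and 294 CPM in Null. All 3 Null values lay above all WT and Het values, Null 1 and Null 2 included, and WT and Het overlapped. The log2 fold change was 3.47 for Null against Het (standard error 0.573, edgeR adjusted p = 0.0456) and 3.13 for Null against WT (standard error 0.637, edgeR adjusted p = 0.0604). Without Null 3 the folds were smaller, 2.48 and 2.14, and both were called (edgeR adjusted p = 5.02e-04 and 0.0199). When any 1 Het library was left out the fold stayed near its size, at 3.26 to 3.65, but the edgeR adjusted p rose to 0.200 to 0.270, and 0 members were then called. Calls over all genes fell too, from 0.615% to between 0.0681% and 0.190%. The Null against Het call was also lost with a filter of mean count over 50 (3.455, edgeR adjusted p = 0.0552). The same held with a replicate block (3.12, edgeR adjusted p = 0.113). These 2 fits called 0.644% and 0.305% of all genes.

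Matn4 exons share 149 bases with those of Rbpjl on the opposite strand, and the strand setting of the counting is not given in the sources used here. Rbpjl, a relative of the Notch effector Rbpj, had 0.814, 0.862 and 0.813 CPM in WT, 1.12, 0.720 and 1.02 CPM in Het, and 6.10, 7.91 and 8.83 CPM in Null. Its Null values also lay above all others, and the difference from WT was 3.19 on the log2 scale (standard error 0.228) and was called (edgeR adjusted p = 0.00145). Rbpjl had 148 to 245 counts in the Null libraries. The gene starts lie 2019 bases apart. Reads of the 2 genes in the shared bases could not be separated here. Tbx18, Twist2, Runx1, Runx2, Pdgfra, Aspn and Lox also share exon bases with opposite-strand genes, from 7 bases for Aspn to 1477 for Twist2.

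Promoter sequence is shown for Matn4, the member that was called, and for Tbx18, the mesenchyme factor with the highest mean CPM in WT. It is also shown for Acan and Matn1, the members with the highest ratios of Null 3 to the next library. The 250 bases before a RefSeq start (GRCm38.p6) are given 5′ to 3′ on the gene's strand. Capitals mark matches to 4 motifs searched on both strands, which are a TATA box (TATAAA), a SOX motif (ACAATG), a RUNX motif (TGTGGT) and a T-box motif (GGTGTG). For Matn4, which has more than 1 listed start, the outermost one is shown.
Matn4 (chr2:164405161-164405410, minus strand): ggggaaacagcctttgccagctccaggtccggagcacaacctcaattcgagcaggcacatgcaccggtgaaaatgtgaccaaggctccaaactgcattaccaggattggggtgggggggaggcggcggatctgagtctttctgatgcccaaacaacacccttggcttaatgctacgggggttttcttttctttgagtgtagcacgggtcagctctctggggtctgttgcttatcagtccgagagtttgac
Acan (chr7:79052976-79053225, plus strand): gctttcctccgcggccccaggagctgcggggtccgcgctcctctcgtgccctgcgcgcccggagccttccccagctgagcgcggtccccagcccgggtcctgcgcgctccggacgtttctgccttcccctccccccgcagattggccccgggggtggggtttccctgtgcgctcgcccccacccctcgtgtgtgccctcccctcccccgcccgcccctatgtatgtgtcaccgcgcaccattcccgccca
Matn1 (chr4:130944135-130944384, plus strand): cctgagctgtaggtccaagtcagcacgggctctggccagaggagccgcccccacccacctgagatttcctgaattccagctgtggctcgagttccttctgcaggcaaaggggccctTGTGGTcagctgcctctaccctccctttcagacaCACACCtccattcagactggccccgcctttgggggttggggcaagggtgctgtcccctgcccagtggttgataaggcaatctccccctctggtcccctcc
Tbx18 (chr9:87731261-87731510, minus strand): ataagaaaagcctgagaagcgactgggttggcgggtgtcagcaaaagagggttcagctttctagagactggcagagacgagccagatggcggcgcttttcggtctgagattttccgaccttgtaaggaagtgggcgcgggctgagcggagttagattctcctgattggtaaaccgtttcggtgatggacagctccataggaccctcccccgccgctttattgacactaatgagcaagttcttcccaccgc
Matn1 held a RUNX match and a T-box match that do not overlap, and the other 3 windows held none of the 4 motifs. Promoters were matched for 21 of the 35 genes. Of these, 3 held the TATA box, 0 the SOX motif, 5 the RUNX motif (Coch, Foxc1, Matn1, Ogn and Runx2) and 3 the T-box motif (Coch, Foxd1 and Matn1). Over 32851 promoters of the same length the shares were 12.4%, 10.7%, 14.0% and 16.3%. GC content was 74.4% for Acan and 54.0% to 62.0% for the other 3.

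Per kb of exon, the WT mean levels of the members ran from Cnmd at 699.9 CPM per kb and Lum at 270.9 CPM per kb, through Mfap4 at 77.8 CPM per kb, Snai1 at 14.6 CPM per kb and Ogn at 14.1 CPM per kb, down to Acan at 0.235 CPM per kb and Comp at 0.0162 CPM per kb. Snai1 and Ogn were not distinguishable within their spread. The 5 genes that spread by less than 2 times (Cnmd, Lum, Dcn, Mfap4 and Fbn1) made up 83.0% to 95.9% of the summed CPM of all 35 genes in 8 libraries and 56.6% in Null 3. These 5 were picked for their small spread, and their sum was 2465, 2417 and 2403 CPM in WT, 2496, 2214 and 2478 CPM in Het, and 2321, 2889 and 2467 CPM in Null. The other 30 genes summed to 286.3, 493.5 and 140.5 CPM in WT, 118.7, 145.2 and 106.1 CPM in Het, and 187.5, 198.9 and 1889 CPM in Null. For these 30, WT 3 fell within the Het range, Null 1 and Null 2 lay between WT 3 and WT 1, and Null 3 stood alone. Matn4 alone gave 70.5 and 78.2 CPM of the sums in Null 1 and Null 2.

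The classes differed in which libraries were high. The 15 transcription factors summed to 138.7, 258.4 and 59.8 CPM in WT, 34.99, 54.1 and 32.5 CPM in Het, and 36.8, 36.6 and 370.1 CPM in Null. The 5 cartilage genes without Cnmd summed to 24.0, 34.0 and 17.5 CPM in WT, 28.3, 35.2 and 18.9 CPM in Het, and 83.2, 90.7 and 1192 CPM in Null. WT 1 and WT 2 were thus high for the mesenchyme factors and within the Het range for cartilage genes, whereas Null 3 was high for both. In Null 1 and Null 2 most of the cartilage sum was Matn4, given above. Counting genes at over 2 times the highest Het library gave 10 of 35 for WT 1, 17 for WT 2, 0 for WT 3, 4 for Null 1, 2 for Null 2 and 28 for Null 3. Across 17797 genes the same shares were 1.99%, 2.33%, 0.669%, 0.618%, 0.652% and 4.44%. In Null 3, 18 of the 35 genes stood at over 2 times every other library, 9 at over 5 times and 6 at over 10 times (Runx1, Omd, Acan, Matn1, Comp and Scrg1), against 1.30%, 0.275% and 0.129% of all genes.

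**Figure D3:**
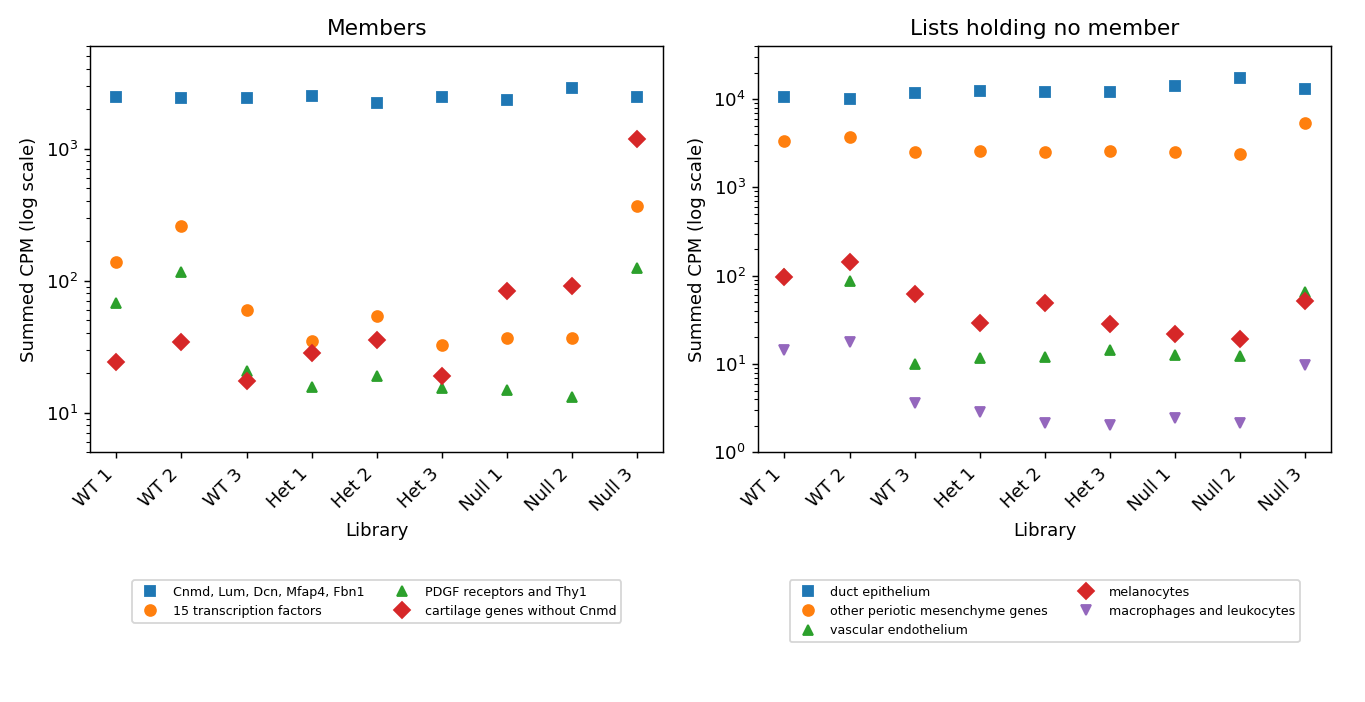
Summed CPM per library (log axis) for 4 groups of members (left) and for 5 lists that hold no member (right). Mesenchyme factors and PDGF receptors are high in WT 1, WT 2 and Null 3 together with endothelial and macrophage markers, cartilage genes without Cnmd are near 1192 CPM in Null 3 alone, and the 5 genes of small spread sum to 2214 to 2889 CPM and the duct epithelium list to 10114 to 17319 CPM.

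For Null against WT, the question was which members changed with loss of Prdm16, and the answer differed with Null 3. Of the 35 genes 28 passed the filter on low counts, and 0 of these were called by edgeR (adjusted p under 0.05 and absolute log2 fold change over 0.5), where 1.71% of all tested genes were called. An unadjusted p under 0.05 was reached by 6 of the 28, all higher in Null, and by 12.2% of all genes. DESeq2 called 3 higher, Matn4, Fbn1 and Comp, of 30 with an adjusted p, against 3.29% of all genes, and gave none for Acan, Matn1, Foxc2, Aspn and Scrg1. All Null values lay above all WT values for Meox1, Fbn1, Matn1, Matn4 and Comp (5 of 35, 14.3%; 10.1% of all tested genes) and below them for 0 of 35 (8.95% of all). Comp had 1 to 2 counts in WT and 5, 5 and 76 counts in Null and did not pass the edgeR filter, so its DESeq2 call and separation rest on values near the floor and on Null 3.

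The median log2 fold change of the 28 genes was 0.50, against 0.01 for all tested genes, and 20 of 28 were positive. Without Null 3 the median of the members tested was -0.45. The transcription factors changed sign, from 10 of 13 positive with a median of 0.48 to 1 of 13 positive with a median of -2.04, and none was called in either fit. The tested cartilage genes stayed positive, 4 of 4 in both fits, with medians of 3.76 and 0.62.

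**Figure D4:**
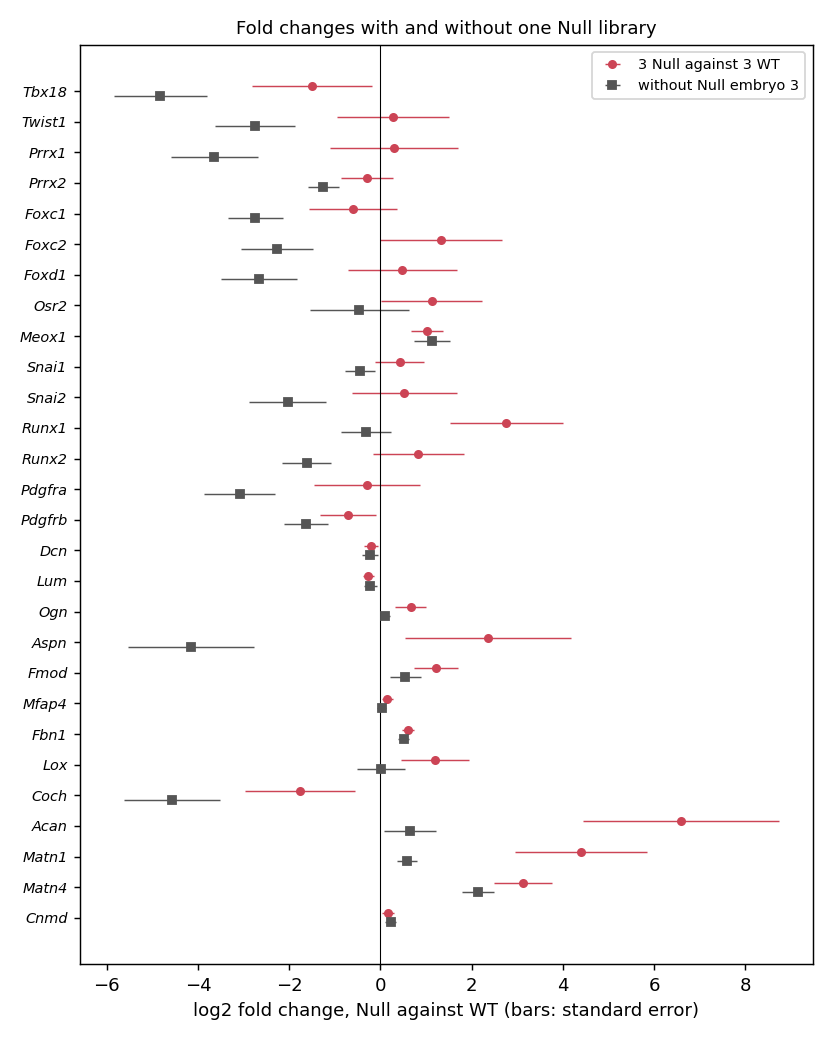
Log2 fold change for Null against WT (edgeR, bars show the standard error) of the 28 tested genes, with all 6 libraries (red circles) and without Null 3 (grey squares). Mesenchyme factors other than Meox1, and Pdgfra, Aspn and Coch, move left without Null 3, Acan falls from 6.59 to 0.65, and Matn4, Fbn1 and Meox1 stay to the right of 0.

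For Het against WT, fold changes were mostly negative, with no member called by edgeR when genotype alone was fitted to the 6 libraries. Of 28 tested, 0 were called (0.151% of all genes were), and 14 had an unadjusted p under 0.05, 12 lower and 2 higher, against 13.1% of all genes. The median was -0.63 against 0.00 for all, and 24 of 28 were negative. DESeq2 called 5 lower (Coch, Pdgfra, Tbx18, Prrx2 and Foxd1) and 1 higher (Matn1) of 29, against 1.75% of all genes. All Het values lay below all WT values for 8 of 35, namely Tbx18, Twist1, Prrx2, Foxc2, Foxd1, Pdgfra, Pdgfrb and Ogn (22.9%; 8.99% of all genes), and above them for Fbn1 and Matn1 (5.71%; 8.98% of all). Endothelial and macrophage marker sums were lower in Het than in WT 1 and WT 2 as well. Melanocyte markers summed to 62.2 to 144 CPM in WT and 28.3 to 48.5 CPM in Het, and erythroid markers to 88.4 to 245 CPM in WT and 37.6 to 58.8 CPM in Het, with all Het sums below all WT sums. The part of these lists was not tested. The median moved to -0.20 without WT 2. Without WT 3, the lowest WT library, edgeR called 11 of 28 members lower, and 2.59% of all tested genes lower. With all 6 libraries and a replicate block, edgeR called 6 of 28 lower, and 0.955% of all tested genes lower. The replicate number was not taken to pair embryos.

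For Null against Het, higher values in Null came mostly from Null 3. Of 26 tested, edgeR called 1, Matn4, higher (0.615% of all genes were called), and 11 had an unadjusted p under 0.05, all higher, against 11.4% of all genes. The median was 1.49 against 0.01 for all genes, 24 of 26 were positive, and the median without Null 3 was -0.10. DESeq2 called Matn4, Lox and Tbx15 higher of 25, against 1.89% of all genes. All Null values lay above all Het values for Tbx15, Meox1, Ogn, Fmod, Lox and Matn4 (6 of 35, 17.1%; 9.06% of all) and below them for 0 of 35 (9.1% of all). Tbx15 had 0 to 1 counts in Het and 9, 2 and 51 counts in Null, so its separation and its DESeq2 call rest on values near the floor and on Null 3. The 3 comparisons share libraries in pairs.

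Other genes of the same tissues, 94 in 6 lists, were read in the same fits. For Null against WT 80 were tested, with 2 called higher and 2 lower, where 1.71% of all tested genes were called. Postn (periostin, a matricellular protein) had 130 to 145 CPM in WT and 351.8 to 525 CPM in Null (log2 fold change 1.60, edgeR adjusted p = 0.00319), and Col6a1, a chain of type VI collagen, had 48.3 to 49.1 CPM in WT and 83.3 to 115 CPM in Null (0.95, edgeR adjusted p = 0.0137). Epyc (epiphycan) had 123 to 232 CPM in WT and 24.0 to 59.3 CPM in Null (-2.05, edgeR adjusted p = 0.0316), and Ltbp4, which binds latent TGF-beta, had 103 to 110 CPM in WT and 36.1 to 62.5 CPM in Null (-1.1307, edgeR adjusted p = 0.0235). None of the 4 had WT 1, WT 2 and Null 3 as its highest libraries. For Het against WT 0 of 77 were called (0.151% of all genes), and for Null against Het 1 of 77, Postn, was higher (0.615% of all genes called). Of the 25 other periotic mesenchyme genes, 14, 13 and 19 stood at over 2 times the highest Het library in WT 1, WT 2 and Null 3. In WT 3, Null 1 and Null 2 it was 1, 0 and 0. Across all genes the shares in WT 1, WT 2 and Null 3 were 1.99%, 2.33% and 4.44%. The median log2 fold change of the 24 tested was -1.39 for Het against WT and 1.21 for Null against Het. Over all genes it was 0.00 and 0.01.

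The genes named next are outside the 35 and were picked after their values were seen. Pou3f4, a POU factor of otic mesenchyme, had 31.7, 56.0 and 3.25 CPM in WT, 1.04, 3.28 and 2.45 CPM in Het, and 0.825, 0.645 and 39.1 CPM in Null. As for Tbx18, WT 2, Null 3 and WT 1 were the 3 highest libraries. Otor (otoraplin), a secreted protein of otic mesenchyme, had 105 and 147 CPM in WT 1 and WT 2, and 1.70 CPM in WT 3, 0.482 to 2.41 CPM in Het, and 1.40, 0.678 and 20.2 CPM in Null. For Otor, Null 3 thus lay well under WT 1 and WT 2, unlike Pdgfra and Prrx1, where it lay above them. Hapln1, a link protein of cartilage matrix, had 1.36 to 7.74 CPM in 8 libraries and 515 CPM in Null 3, and Col1a1, a fibrillar collagen chain of bone and fibroblasts, 7.36 to 11.8 CPM and 283 CPM. Both followed Acan and not Tbx18. Col1a2, another collagen chain, was instead high in WT 1, WT 2 and Null 3, like Tbx18. It had 135.2, 279.7 and 35.49 CPM in WT, 36.2 CPM or below in Het, and 27.97, 15.88 and 513.1 CPM in Null. WT 1, WT 2 and Null 3 were also the 3 highest libraries for Col3a1 and Bgn. Null 3 was the highest of them for Col1a2, Col3a1 and Bgn. Of the 16 other cartilage genes, 9 stood at over 2 times the highest Het library in Null 3, 0 in WT 1 and 1 in WT 2.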

How the data were processed

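RNA of microdissected E14.5 cochlear ducts was measured in 9 libraries. The authors prepared TruSeq mRNA libraries, sequenced 50-base single reads and aligned them to mm10 with STAR, and the submitters' notes also list cutadapt 1.13, HTSeq 0.6.1p1 and DESeq2. The deposited values are raw counts per Ensembl gene, not normalized. The strand setting and annotation release are not given in the sources used here. Identifiers were named from GENCODE vM21. Groups came from the labelled genotypes. No batch is given in the labels.

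For each pair of genotypes, the 6 libraries concerned were fitted with edgeR 4.0.16 (R 4.3.3) by the quasi-likelihood test, with TMM factors and filterByExpr (minimum count 10). Adjusted p-values are Benjamini-Hochberg over all genes tested, and a gene was called at adjusted p under 0.05 with a log2 fold change over 0.5 in size. The 35 genes and all lists were chosen with earlier results of these data known. Every member was given its values, and other genes were named when called or when a result turned on them. Alternatives were DESeq2 1.42.0, RLE or total-count scaling, other filters, all 9 libraries in one fit, a replicate block, a mesenchyme covariate and leaving out each embryo. The procedure was tested on simulated data. Totals of 24095322 to 30819118 counts and 3 embryos per genotype set the precision. No pair of libraries within a genotype differed by as little as sampling noise. Single-cell data were not used here.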

Additional observations from a re-analysis of the deposited data

How the results depend on the processing

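RLE and total-count scaling left each count of called members as in the report. For Null against WT, in place of 0 called members, DESeq2 gave 3, dropping the count filter 5, a joint fit of all 9 libraries 2 (Matn4 and Fbn1), and the level of other mesenchyme genes as a covariate 8, of which 3 were higher (Matn4, Fbn1 and Acan) and 5 lower (Tbx18, Prrx1, Pdgfra, Foxc1 and Coch). Those 4 fits called 3.29%, 1.49%, 2.63% and 3.51% of all genes. The covariate is itself measured in these libraries. It sums a list that holds Postn and Col6a1, both called higher in Null against WT. The median log2 fold change of members turned negative with the replicate block (-0.24), with the covariate (-0.23) and without Null 3 (-0.45). For Het against WT, in place of 0, DESeq2 gave 6, no filter 17 and the replicate block 6, where 1.75%, 2.14% and 1.14% of all genes were called, and the median was -1.25 with no filter and -0.14 with the covariate. Dropping the filter left the Tbx18 fold at -3.88 but moved its edgeR adjusted p from 0.0757 to 4.77e-67. The calls without a filter thus rest on the filter and not on larger folds. For Null against Het, in place of 1, DESeq2 gave 3, no filter 10, the covariate 2 (Matn4 and Lox), a mean count over 50 gave 0 and the replicate block 0, where 1.89%, 1.15%, 1.18%, 0.644% and 0.305% of all genes were called. The Null against Het median was 0.09 with the covariate and turned negative without Null 3 (-0.10). Except for leaving out Null 3, the cause was not tested.

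Leaving out each embryo in turn gave 0 to 1 called members and medians of -0.45 to 0.99 for Null against WT, 0 to 11 called and medians of -1.30 to -0.20 for Het against WT, and 0 to 1 called and medians of -0.10 to 2.33 for Null against Het. These fits called 0.382% to 2.51%, 0% to 2.86% and 0.0681% to 1.03% of all genes. Where 1 embryo was left out of a group, 2 remained. Correlations of same-numbered embryos were -0.284 to 0.00534 for Null against WT, -0.0581 to 0.202 for Het against WT and -0.117 to 0.139 for Null against Het. In no comparison were all 3 over 0.1, so the number was not taken to pair embryos. Under it the Matn4 log2 fold change against Het was 3.12, near that of the report, and was not called (edgeR adjusted p = 0.113). Without the 3 most abundant members, the summed CPM per library was 608.9, 826.2 and 435.4 in WT, 432 (Het 1), 438.3 and 429.3 in Het, and 447.7, 529.9 and 2235 in Null. The mean log2(CPM + 1) over the 35 genes was 3.10, 3.64 and 2.62 in WT, 2.45, 2.69 and 2.44 in Het, and 2.63, 2.54 and 4.83 in Null. Depth limits Tbx15, Twist2, Osr2, Thy1, Aspn, Omd, Mfap5, Comp and Scrg1, where a few counts decide a value.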
